A study of Mus musculus with 6 samples.

Results

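Leukocytes share a set of surface and actin-linked genes whatever their lineage, and 10 of these were described here in retinal cells after optic nerve injury. The set was given as a list of symbols, chosen with earlier results of these data known and not by a threshold on the counts. It holds Ptprc, the integrin genes Itgb2, Itgal, Itgam and Itga4, and the actin and Rac pathway genes Lcp1, Coro1a, Was, Rac2 and Dock2, which are 10 of the 32371 genes in the count table. All 10 had a row and passed the filter on low counts.

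The libraries came from C57BL/6J mice 6 to 10 weeks old. Both groups received an intravitreal injection of AAV2, an optic nerve crush (ONC) 2 weeks later, and tissue collection 3 days after the ONC. The virus carried GFP in 3 libraries and Ezh2-Y726D, a form of the histone methyltransferase Ezh2 without catalytic activity, in the other 3, so both groups share the virus and the injury and no uninjured group enters. Dissociated retinal cells were blocked with an antibody to CD16/CD32 and sorted as live cells positive for CD90.2, the product of Thy1, which retinal ganglion cells (RGCs) and, in mice, also T cells carry on their surface. The sources used here do not say whether a library pools mice or which promoter drove these transgenes, so p-values measure the spread between these libraries, which may be technical.

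CD45, encoded by Ptprc, is a receptor tyrosine phosphatase on all nucleated cells of the blood lineage, where it sets the activity of Src family kinases. The β2 integrins pair Itgb2 with an α chain, Itgal in LFA-1 or Itgam in Mac-1, and hold leukocytes to ICAM-1 and to complement fragments, while Itga4 forms VLA-4, the receptor for VCAM-1. Inside the cell, Dock2 loads Rac2 with GTP, Was (WASP) passes such signals to the Arp2/3 complex, Coro1a (coronin 1A) remodels the branched actin, and Lcp1 (L-plastin) bundles it. In the retina these genes are carried by microglia, macrophages and other immune cells, and not by neurons at like levels.

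Expression of most of these genes was lower in the Ezh2-Y726D libraries than in the GFP libraries, and Itgam was the exception. Read counts were scaled to CPM (counts of a gene per 1000000 counts of the library) with edgeR's TMM factors, which set the bulk of genes equal between libraries. The summed CPM of the 10 genes was 694, 713 and 678 in GFP replicates 1 to 3 and 377, 424 and 434 in Ezh2-Y726D replicates 1 to 3. The groups did not overlap, and the Ezh2-Y726D mean was 59.2% of the GFP mean. In sorted bulk cells, fewer leukocytes and less of these RNAs per leukocyte cannot be told apart.

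Many of these genes are known targets of PU.1 and other ETS factors, which bind DNA at a GGAA core, so the bases before their starts are shown for 3 of them. RefSeq windows (GRCm38.p6) were found for 7 of the 10 genes, and not for Itgb2, Itgal and Rac2. The motifs searched, on both strands, were AGGAAG and the overlapping longer GAGGAAG, in the 250 bases before each start. Some genes have several windows, 10 in all. AGGAAG was found in 6 of these 10 windows, beside 29.5% of all 32851 windows, and GAGGAAG in 2 of the 10, beside 10.6% of all windows. Both windows of Ptprc overlap and share a match to AGGAAG, which is counted in each, so the 6 windows belong to 5 genes. The windows printed hold no annotated exon. They are those of Dock2 and Itgam, which both hold GAGGAAG (in capitals), and that of Itga4, which holds neither motif. Each is written 5′ to 3′ on the strand of its gene, at chr11:34783906-34784155 (minus), chr7:128062390-128062639 (plus) and chr2:79255176-79255425 (plus).
Dock2: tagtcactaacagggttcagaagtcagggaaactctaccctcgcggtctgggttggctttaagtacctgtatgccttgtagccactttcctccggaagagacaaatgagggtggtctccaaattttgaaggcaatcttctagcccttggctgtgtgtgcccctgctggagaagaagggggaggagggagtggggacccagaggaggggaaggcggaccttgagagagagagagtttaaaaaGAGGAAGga
Itgam: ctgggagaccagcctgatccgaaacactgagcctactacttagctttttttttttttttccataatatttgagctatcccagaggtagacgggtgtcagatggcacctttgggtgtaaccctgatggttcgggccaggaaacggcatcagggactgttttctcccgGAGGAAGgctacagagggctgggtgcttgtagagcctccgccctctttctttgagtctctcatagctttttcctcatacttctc
Itga4: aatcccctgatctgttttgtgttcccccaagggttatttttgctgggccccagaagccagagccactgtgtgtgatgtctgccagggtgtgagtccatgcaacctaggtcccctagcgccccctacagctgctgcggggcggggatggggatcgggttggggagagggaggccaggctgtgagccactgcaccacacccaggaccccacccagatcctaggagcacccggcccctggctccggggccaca
A match describes the letters in the window and does not show binding.

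By edgeR's quasi-likelihood test, 9 of the 10 genes were differentially expressed genes (DEGs), for which a fold change over 1.5 and an adjusted P under 0.05 were both required, and all 9 were lower. Among all 18138 genes tested, 5.50% were DEGs in that direction. The 9 were also the genes whose groups did not overlap, which was the case with a lower Ezh2-Y726D group for 18.9% of all genes. The median log2 fold change of the 10 genes was −0.77, and that of all genes was 0.00. DESeq2 called the same number of the 10 genes lower, 9, beside 4.60% of all genes.

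These calls depend on the scaling. An rRNA gene, CT010467.1, took between 6.59% and 52.2% of the counts in the GFP libraries and between 2.55% and 16.1% in the Ezh2-Y726D libraries. Scaled by library totals with that gene left out, 9 of the 10 genes were lower DEGs (5.79% of all genes) and the median of the 10 was −0.79. Scaled by library totals that include it, the median of all genes moved to 0.49. The 9 genes then lay between −0.52 and −0.15, none of the 10 was a DEG (0.105% of all genes were lower DEGs), 0 passed at an unadjusted P under 0.05, and the median of the 10 genes relative to all genes was −0.76.

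**Figure D1:**
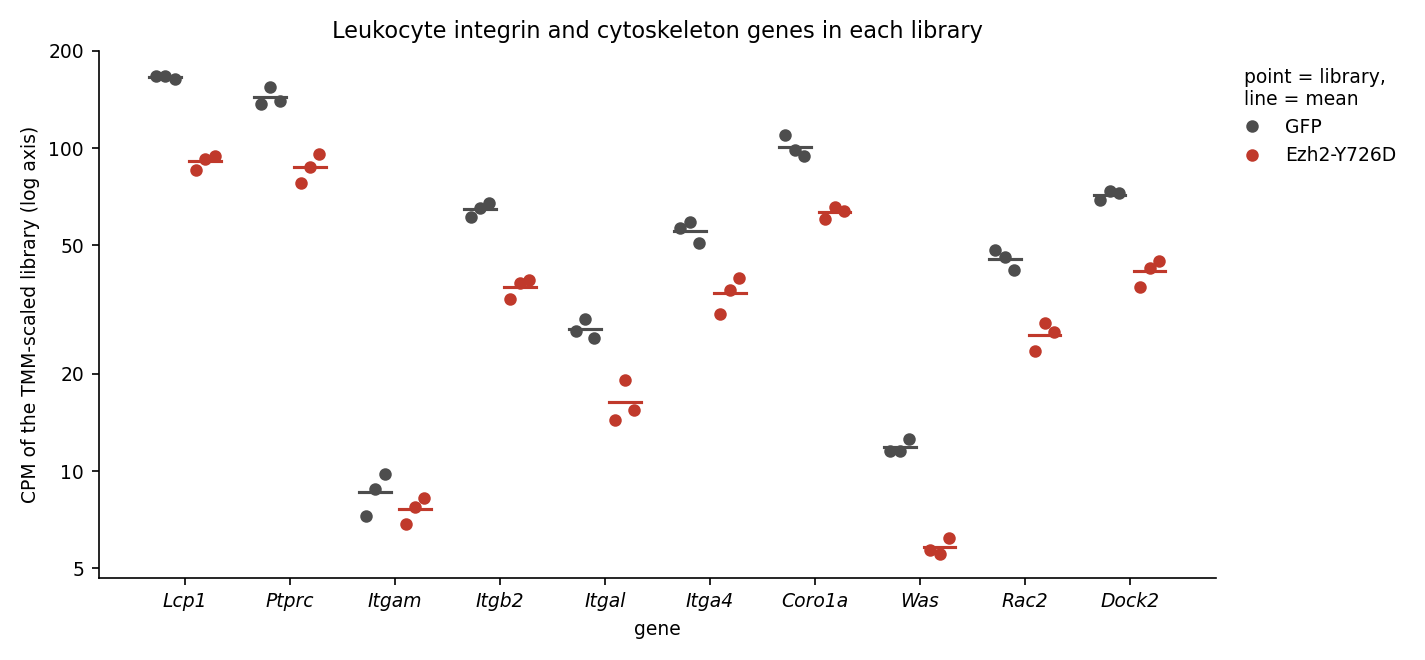
CPM of the TMM-scaled library on a log axis for each of the 10 genes, with 1 point for each library and a line at the group mean. In 9 genes each Ezh2-Y726D point lies below each GFP point, and for Itgam the groups overlap, with 7.26 to 9.79 CPM in GFP and 6.84 to 8.24 CPM in Ezh2-Y726D. Under scaling by library totals the sign of Itgam turned to 0.37 on the log2 scale.

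Ptprc (chr1:138062861-138175708, minus strand, GRCm38) was present at 137, 154 and 140 CPM in GFP replicates 1 to 3 and at 78.2, 87.6 and 95.5 CPM in Ezh2-Y726D replicates 1 to 3. The highest Ezh2-Y726D library lay well under the lowest GFP library. Its log2 fold change was −0.71 (SE 0.0561, n = 3 libraries per group, adjusted P = 7.06e-11 by edgeR's quasi-likelihood test), which left 60.7% of the GFP level. Its exons overlap those of no other annotated gene.

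The integrin subunits fell into 3 that were lower and 1 that did not pass. Itgb2 (chr10:77530252-77565708, plus strand), the β chain common to LFA-1 and Mac-1, stood at 61.2, 65 and 67.5 CPM in GFP and at 34.1, 38.2 and 39 CPM in Ezh2-Y726D. Its log2 fold change was −0.78 (SE 0.0599, adjusted P = 4.10e-11, edgeR). The α chain of LFA-1, Itgal (chr7:127296260-127335138, plus strand), was lower by a similar amount. Its CPM was 27.2, 29.5 and 25.9 in GFP and 14.4, 19.1 and 15.5 in Ezh2-Y726D. That difference was −0.77 on the log2 scale (SE 0.0851, adjusted P = 3.97e-08, edgeR), and within Ezh2-Y726D replicate 2 was the highest library.

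Itga4 (chr2:79255426-79333123, plus strand), the α chain of VLA-4, was the least changed of the 9. It was measured at 56.4, 59.1 and 50.8 CPM in GFP and at 30.7, 36.4 and 39.6 CPM in Ezh2-Y726D. The log2 fold change of −0.65 (SE 0.0725, adjusted P = 4.41e-08, edgeR) lay just past the fold change threshold, which is 0.58 on this scale. Without Ezh2-Y726D replicate 1, its lowest library, the value was −0.55 and Itga4 was no longer a DEG. In exonic bases, 8.04% of Itga4 overlaps Cerkl on the other strand, and whether strand was used in counting is not given in the sources used here.

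Itgam (chr7:128062640-128118491, plus strand), the α chain of Mac-1 known as CD11b on microglia and myeloid cells, did not pass the test. It was present at 7.26, 8.77 and 9.79 CPM in GFP and at 6.84, 7.74 and 8.24 CPM in Ezh2-Y726D. The groups overlapped, and the log2 fold change was −0.08 (SE 0.123, adjusted P = 0.693, edgeR). Leaving out 1 library moved it from −0.28 (without GFP replicate 1) to −0.00 (without Ezh2-Y726D replicate 1), and it passed in none of these fits. These values rest on raw counts of 207, 68 and 59 in GFP and 182, 158 and 243 in Ezh2-Y726D, which are far fewer than the 1195 and 844 counts of Ptprc in GFP replicates 2 and 3. In GENCODE vM21, 68.7% of the exonic bases of Itgam also belong to Gm49368 on the same strand. Gm49368 has no row in the count table, and how reads in the shared exons were counted is not given in the sources used here, so the level of Itgam is uncertain.

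The actin and Rac genes were all lower. Lcp1 (chr14:75131101-75230842, plus strand) had the smallest adjusted P of the 10 genes. It stood at 167, 167 and 163 CPM in GFP and at 85.5, 92.7 and 94.3 CPM in Ezh2-Y726D. The log2 fold change was −0.87 (SE 0.0432, adjusted P = 1.06e-14, edgeR), and the GFP libraries differed by less than their distance to any Ezh2-Y726D library. Exons of Gm15628 and Gm15629 on the other strand cover 5.58% of its exonic bases.

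Coro1a (chr7:126699773-126707787, minus strand) was measured at 110, 98.8 and 94.4 CPM in GFP and at 60.5, 65.5 and 63.9 CPM in Ezh2-Y726D. Its log2 fold change was −0.70 (SE 0.0523, adjusted P = 2.52e-11, edgeR). The spread among GFP libraries (SD 8.04 CPM) was larger than among Ezh2-Y726D libraries (SD 2.54 CPM), and both were small beside the distance between the groups.

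Was (chrX:8081453-8090498, minus strand) had the largest fall of the 10 genes. The gene of WASP was present at 11.5, 11.5 and 12.6 CPM in GFP and at 5.71, 5.54 and 6.2 CPM in Ezh2-Y726D, so that 49% of the GFP mean remained. It fell by 1.00 on the log2 scale (SE 0.108, adjusted P = 2.28e-08, edgeR). It was the sole gene of the 10 past a fold change of 2 as well, as were 1.70% of all genes in that direction. Its value lies at that threshold, with −0.97 without GFP replicate 3 or without Ezh2-Y726D replicate 2, −0.98 without Ezh2-Y726D replicate 1 and −0.99 with no filter, all short of it.

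Rac2 (chr15:78559167-78572783, minus strand), the Rac GTPase of blood cells, stood at 48.2, 45.9 and 42 CPM in GFP and at 23.6, 28.7 and 26.9 CPM in Ezh2-Y726D. The log2 fold change was −0.81 (SE 0.0687, adjusted P = 2.82e-10, edgeR). Its exchange factor Dock2 (chr11:34226815-34783892, minus strand) moved by nearly the same amount. Dock2 was at 68.9, 73.7 and 72.5 CPM in GFP and at 37.2, 42.6 and 44.8 CPM in Ezh2-Y726D, a log2 fold change of −0.78 (SE 0.0608, adjusted P = 6.51e-11, edgeR). For both genes the groups were separated by a gap wider than either group's range.

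The order of the levels was read per kilobase of exon, since longer genes collect more reads. The length was that of all annotated exons merged, 18313 bases for Ptprc, 13978 for Itga4 and 9504 for Lcp1 against 2783 for Coro1a. Where the transcripts present are shorter than this, the level per kb is too low. By CPM alone, Lcp1 (mean 165 in GFP) and Ptprc (144) exceeded Coro1a (101), so the order depends on the length used. In GFP, Coro1a was highest with a mean of 36.3 CPM per kb, followed by Itgb2 with 21.2, Lcp1 with 17.4, Rac2 with 14.6 and Ptprc with 7.84 CPM per kb. Dock2 followed with 6.27, Was with 4.98, Itgal with 4.19, Itga4 with 3.96 and Itgam with 1.71 CPM per kb. Itgal and Itga4 were the sole neighbours in this order whose GFP ranges overlapped. In Ezh2-Y726D the order was the same at the top, from 22.8 CPM per kb for Coro1a to 4.76 for Ptprc, and Itga4 (2.54), Itgal (2.48) and Was (2.44) lay together near the bottom, above Itgam with 1.51 CPM per kb.

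Within a library, each gene can be set against Ptprc, and scaling between libraries then plays no part. Of 9 such ratios, 7 had groups that overlapped. Itgb2 had 0.448, 0.422 and 0.482 counts for each Ptprc count in GFP and 0.436, 0.436 and 0.408 in Ezh2-Y726D, a log2 difference of −0.08 (SE 0.0645, exact permutation P = 0.4). The differences of Itgal, Itga4, Coro1a, Rac2 and Dock2 lay between −0.07 and 0.08, and that of Lcp1 was −0.14 (SE 0.0664, exact permutation P = 0.2).

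The ratios of Itgam and Was to Ptprc had groups that did not overlap, in opposite directions. Itgam had 0.0531, 0.0569 and 0.0699 counts for each Ptprc count in GFP and 0.0875, 0.0884 and 0.0862 in Ezh2-Y726D, a log2 difference of 0.55 (SE 0.119). Was had 0.0842, 0.0745 and 0.09 in GFP and 0.0731, 0.0632 and 0.0649 in Ezh2-Y726D, a log2 difference of −0.30 (SE 0.103). For both the two-sided exact permutation P was 0.1, the smallest that 3 against 3 libraries can give, and 0.36 after Benjamini-Hochberg adjustment over the 9 ratios, so neither passed.

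**Figure D2:**
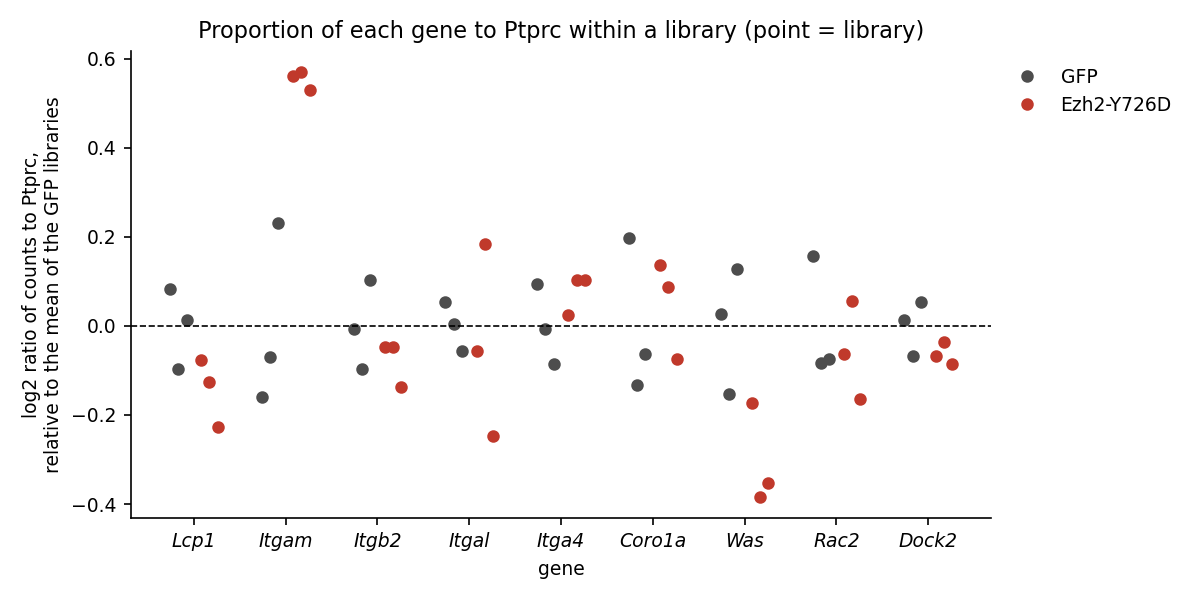
Log2 ratio of the counts of each gene to those of Ptprc in the same library, relative to the mean of the GFP libraries, with 1 point for each library. The Ezh2-Y726D points of Itgam lie above its GFP points (difference 0.55), those of Was lie below (difference −0.30), and in the other 7 genes the groups overlap.

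Each gene was then set beside a relative that most cell types express, again as a ratio of counts within a library. Lcp1 had 4.9, 5.05 and 5.31 counts for each count of Pls3 (T-plastin) in GFP and 2.43, 2.4 and 2.78 in Ezh2-Y726D, so that the log2 ratio fell by 1.00 (SE 0.0756). Was relative to Wasl (N-WASP) differed by −1.07 (SE 0.0722), from 0.29, 0.269 and 0.31 in GFP to 0.139, 0.131 and 0.144 in Ezh2-Y726D. Rac2 relative to Rac1 differed by −0.77 (SE 0.122), from 0.352, 0.308 and 0.295 to 0.165, 0.207 and 0.19. In these 3 pairs the leukocyte gene lost ground in every Ezh2-Y726D library.

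The other pairs with groups that did not overlap were Ptprc to Ptpra (−0.79), Coro1a to Coro1c (−0.70), Dock2 to Dock1 (−0.69), Itgal to Itgav (−0.63), Itga4 to Itga9 (−0.49) and Itgb2 to Itgb1 (−0.46). In all, 9 of the 10 pairs were separated. For each of the 9 the two-sided exact permutation P was 0.1, the smallest possible, and 0.111 after adjustment over the 10 pairs, so this test could not take them past 0.05 with 3 against 3 libraries. Itgam to Itgav differed by −0.04 (SE 0.142, exact permutation P = 0.7), with groups that overlapped.

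Of the paralogs in these pairs, Itgb1, the β chain of integrins on most cells, and Itgav, an α chain of vitronectin receptors, had changes that passed the test. Itgb1 was at 149, 144 and 161 CPM in GFP and 116, 118 and 124 CPM in Ezh2-Y726D, a log2 fold change of −0.34 (SE 0.0438, adjusted P = 6.45e-07, edgeR). Itgav was at 226, 224 and 235 CPM in GFP and 212, 203 and 211 CPM in Ezh2-Y726D, a log2 fold change of −0.13 (SE 0.0394, adjusted P = 0.0147, edgeR). The call of Itgav was lost with no filter, without GFP replicate 3 and without Ezh2-Y726D replicate 2 (each −0.11). Under scaling by library totals both changed sign, Itgb1 to 0.17 and Itgav to 0.38. The log2 fold changes of Pls3, Ptpra, Itga9, Coro1c, Wasl, Rac1 and Dock1 lay between −0.13 and 0.11 and did not pass. Itga9 passed as lower without GFP replicate 1 (−0.20, adjusted P = 0.0277, edgeR) and without Ezh2-Y726D replicate 1 (−0.17, adjusted P = 0.0408, edgeR). In Rac1, 51.4% of the exonic bases overlap Daglb on the other strand.

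**Figure D3:**
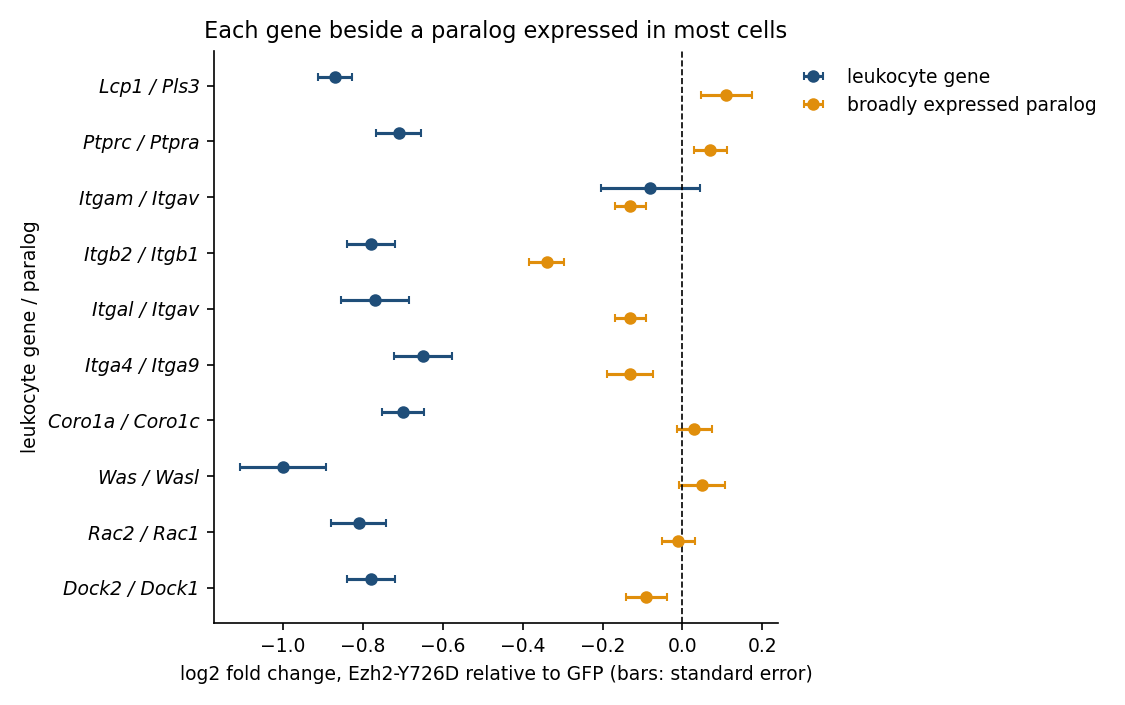
Log2 fold change of Ezh2-Y726D relative to GFP for each leukocyte gene (blue) and a paralog expressed in most cells (orange), with bars of 1 standard error and a dashed line at the median of all genes (0.00). Apart from Itgam at −0.08, the blue points lie at or below −0.65, and the orange points lie between −0.34 and 0.11, with values that shift upward under scaling by library totals.

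The wider families of these paralogs were mixed. Without the fold change threshold, 13.6% of all genes passed the test as lower and 13.9% as higher, and this is the rule for the counts of the lists that follow. Of the 26 listed genes, 11 fell and 3 rose, and 6 to 11 fell as each library was left out in turn. Rhog, a Rac-like GTPase, fell by 0.69 on the log2 scale, and Coro2a by 0.44. Itgb3 also fell by 0.44 (SE 0.16, adjusted P = 0.0399, edgeR), a call that was lost with DESeq2 (adjusted P = 0.149), with no filter, after thinning the counts to the shallowest library, and without any library other than GFP replicate 3. Dock3, an exchange factor of neurons, rose by 0.42 (SE 0.0448, adjusted P = 2.08e-08, edgeR), Rac3, a Rac GTPase of the nervous system, rose by 0.54 (SE 0.138, adjusted P = 0.00309, edgeR) and Coro2b rose by 0.29. The summed CPM of the list in Ezh2-Y726D was 95.4% of that in GFP.

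Regulators of Rac and actin that are largely those of blood cells followed the 10 genes. Of 28 tested, 27 were lower, 19 of them as DEGs, and none was higher, with a median log2 fold change of −0.69. Vav1, a Rac exchange factor, was at 36.5, 36 and 37 CPM in GFP and 17.8, 20.1 and 19 CPM in Ezh2-Y726D, a log2 fold change of −0.95. Nckap1l, the WAVE complex subunit of blood cells, stood at 64.7, 63.6 and 63 CPM in GFP and 38, 38.6 and 40.8 CPM in Ezh2-Y726D (−0.71). Capg, an actin capping protein, fell by 1.17, Gmfg, which debranches actin, by 1.10, and Arhgap25, a GTPase activating protein for Rac, by 1.03. Elmo1, the partner of Dock2 and Dock1 that neural cells also express, was the exception, with 56.3 to 59.7 CPM in GFP and 56.7 to 58.8 CPM in Ezh2-Y726D.

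The Arp2/3 and WAVE complexes, which Was and Rac act on, split by subunit. Of 18 genes, 11 were lower and 5 higher, with a median of −0.20, and the summed CPM in Ezh2-Y726D was 98.9% of that in GFP. Abi3 fell by 0.74, Arpc5 by 0.46 and Actr3 by 0.38. The WAVE complex genes Wasf1, Cyfip2 and Wasf3 rose by 0.44, 0.30 and 0.24 (edgeR, adjusted P = 0.00475, 1.72e-06 and 7.04e-05). The groups of Wasf1 overlapped, with 6.56, 7.09 and 9.29 CPM in GFP and 9.1, 10.1 and 10 CPM in Ezh2-Y726D, and its call was lost with DESeq2 (adjusted P = 0.0516) and without GFP replicate 1 (0.27 on the log2 scale).

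Among genes that activate integrins or link them to the cytoskeleton, 13 of 19 were lower and 1 was higher, with a median of −0.48. Fermt3 (kindlin-3), which switches on integrins in blood cells, was at 35.1, 32.4 and 31 CPM in GFP and 19.6, 20.2 and 20 CPM in Ezh2-Y726D (log2 fold change −0.75). Skap1, an adaptor of T cells, fell by 1.00, the kinase Syk by 0.93, and Fyb, the adaptor ADAP, by 0.87. The talin genes moved apart: Tln1 differed by −0.48 (SE 0.0394, adjusted P = 1.46e-10, edgeR) and Tln2, the talin of brain and muscle, by 0.23 (SE 0.0387, adjusted P = 2.90e-05, edgeR).

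Of 5 other leukocyte integrin genes tested, 4 were lower and 1 was higher. Itgb7, the β chain of gut-homing integrins, stood at 29.7, 37.4 and 27.4 CPM in GFP and 15.2, 17.1 and 16 CPM in Ezh2-Y726D, a log2 fold change of −0.96. Itgax (CD11c) fell by 0.54 and Itgae (CD103) by 0.52. Itga2, a collagen receptor chain, rose by 0.28 (SE 0.0907, adjusted P = 0.0196, edgeR), a call that was lost with DESeq2, after thinning, without GFP replicate 1, without GFP replicate 2 and without Ezh2-Y726D replicate 3. Itgad did not reach the count filter.

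Of 10 genes for ligands of these integrins, 6 were lower and none was higher. Icam1, the ligand of LFA-1 and Mac-1, was at 33.1, 32 and 29.4 CPM in GFP and 19.3, 20.8 and 20.5 CPM in Ezh2-Y726D, a log2 fold change of −0.67. C3, whose fragment iC3b binds Mac-1, fell by 0.99, and Spp1 (osteopontin), a ligand of several integrins, by 1.49. The summed CPM of the ligand list in Ezh2-Y726D was 68.5% of that in GFP.

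Genes that act with CD45 were mixed. Of 12 genes, 8 were lower and 1 higher, with a median of −0.72. Ptpn6 (SHP-1), a phosphatase of blood cells, was at 48.5, 49.3 and 49.4 CPM in GFP and 22.9, 27.5 and 28.7 CPM in Ezh2-Y726D, a log2 fold change of −0.89. Ptprcap, which binds CD45, fell by 0.82, and Fgr, a Src family kinase of myeloid cells, by 0.80. Src, which most cells express, rose by 0.14 (SE 0.0459, adjusted P = 0.0209, edgeR), a call that was lost with DESeq2, after thinning, without GFP replicate 1 and without Ezh2-Y726D replicate 1.

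Other genes listed as pan-leukocyte, not all of which every leukocyte type expresses, moved with the 10 genes. Each of the 15 tested was lower, 12 as DEGs, with a median of −0.76. Their summed CPM in Ezh2-Y726D was 58.9% of that in GFP, beside 59.2% for the 10 genes. Spi1, which encodes the myeloid and B cell transcription factor PU.1, was at 17.7, 19.9 and 16.3 CPM in GFP and 9.43, 10.7 and 9.9 CPM in Ezh2-Y726D (log2 fold change −0.85). Cd84 fell by 1.24, Cd53, a tetraspanin of leukocytes, by 1.04, and Fcer1g, an adaptor of Fc receptors, by 1.03.

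Markers of leukocyte types moved by different amounts. All 10 T cell markers were lower as DEGs, with a median of −0.80, and their summed CPM ran from 139 to 141 in GFP and from 77.7 to 84.4 in Ezh2-Y726D. Of 7 NK cell markers, 6 were lower (median −0.84, summed CPM 31.8 to 37.4 against 19.1 to 20.6). Of 5 B cell markers tested, 3 were lower (median −0.90), at summed levels of 6.63 to 7.87 CPM in GFP and 3.16 to 4.61 CPM in Ezh2-Y726D. Monocyte and macrophage markers were the furthest from 0, with 8 of 9 lower, a median of −1.57 and a summed CPM of 151 to 167 against 64.4 to 77.5.

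Microglial markers were mixed. Of 10 genes, 4 were lower and 2 higher, with a median of −0.15 and a summed CPM of 440 to 492 in GFP and 347 to 409 in Ezh2-Y726D. Csf1r, the CSF-1 receptor, was at 154, 174 and 155 CPM in GFP and 112, 125 and 130 CPM in Ezh2-Y726D (−0.39), and Cx3cr1, the fractalkine receptor, changed by −0.40. P2ry12, a purinergic receptor of resting microglia, was at 9.3, 9.93 and 9.95 CPM in GFP and 10.1, 13.1 and 13 CPM in Ezh2-Y726D (0.33, SE 0.111, adjusted P = 0.0243, edgeR). Sall1 changed by 0.61 (SE 0.142, adjusted P = 0.00137, edgeR) and Tmem119 by −0.14 (not past the threshold). Dendritic cell markers were mixed as well, with 2 of 6 lower, 1 higher, a median of −0.24 and a summed CPM of 43.3 to 48.9 in GFP and 37.3 to 39.5 in Ezh2-Y726D. The higher gene was Cd209a, at 1.37, 0.645 and 0.332 CPM in GFP and 2.07, 1.18 and 2.27 CPM in Ezh2-Y726D, groups that overlapped (0.84, SE 0.312, adjusted P = 0.0445, edgeR). Of 2 erythroid markers tested, 1 was higher, the globin gene Hba-a1 (1.23, adjusted P = 0.00125, edgeR), and the summed CPM of the list was 2.71 to 5.47 in GFP and 5.64 to 8.54 in Ezh2-Y726D. No neutrophil marker reached the count filter, and 6 of the 7 in the table had 3 or fewer counts in every library. What part each of these cell types has in the 9 lower genes was not tested.

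**Figure D4:**
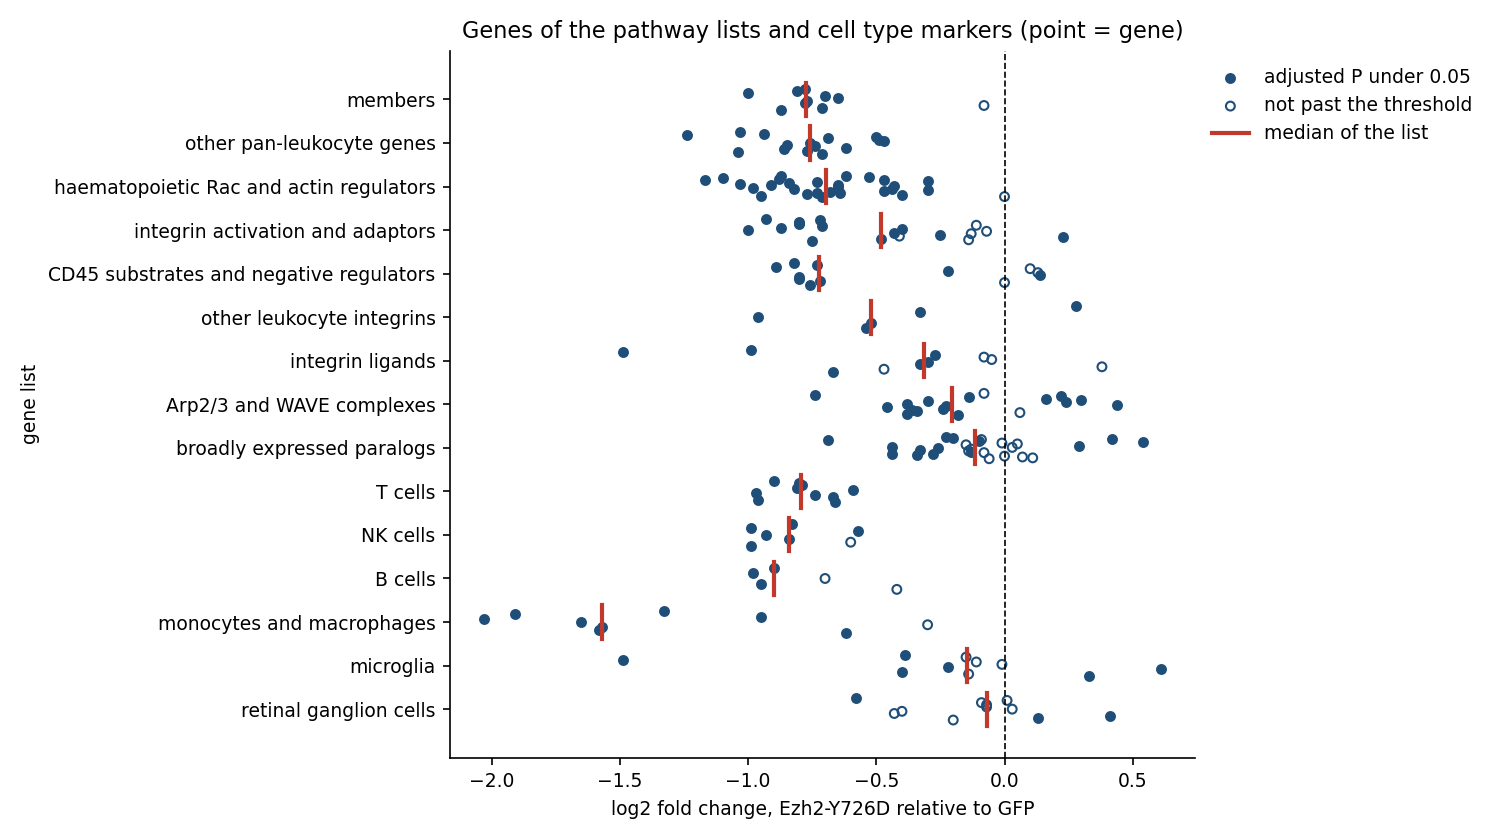
Log2 fold change of Ezh2-Y726D relative to GFP for the 10 genes and each tested gene of the pathway lists and some marker lists (1 point per gene). The marker lists drawn are those of T, NK and B cells, monocytes and macrophages, microglia and RGCs. Not drawn are bipolar cells (median −0.40), pericytes (−0.43), amacrine cells (0.58), rods, Müller glia, endothelial, dendritic and erythroid cells. Filled points have an adjusted P under 0.05 (edgeR). A red line marks each list's median and a dashed line the median of all genes. The medians of the 10 genes (−0.77), other pan-leukocyte genes (−0.76) and T cell markers (−0.80) lie together. The median of monocyte and macrophage markers lies lower (−1.57), and those of microglial (−0.15) and RGC (−0.07) markers lie near 0. Single microglial markers run from −1.49 to 0.61. Under scaling by library totals all lists shift upward with the median of all genes (0.49).

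The markers of other retinal cells give the setting of these values. Ezh2, the gene the virus adds in mutant form, was at 22.7, 23.9 and 26.4 CPM in GFP and 65.2, 65.6 and 65.2 CPM in Ezh2-Y726D. Thy1, the gene of the sorted antigen, was at 106, 111 and 99.7 CPM in GFP and 114, 122 and 112 CPM in Ezh2-Y726D (0.13, SE 0.046, adjusted P = 0.0315, edgeR). The call of Thy1 was lost with DESeq2 (adjusted P = 0.0842), with library totals without the rRNA gene, after thinning, without GFP replicate 1, without GFP replicate 3 and without Ezh2-Y726D replicate 2. Of 11 RGC markers, 2 were higher, Thy1 among them, and 1 was lower (summed CPM 494 to 507 in GFP, 469 to 507 in Ezh2-Y726D). Markers of rods (summed CPM 5582 to 5746 in GFP and 6120 to 6312 in Ezh2-Y726D) and of Müller glia (8151 to 8571 and 6785 to 7005) were present in both groups, so the RNA was not that of RGCs alone. Of the 7 Müller glia markers, 3 were lower and 1 higher, with a median of −0.09, and the sum was moved most by Apoe, with a mean of 3099 CPM in GFP and 1983 CPM in Ezh2-Y726D. Other lists moved in the direction of the 9 genes. Of 7 bipolar cell markers, 6 were lower and 1 was higher (median −0.40, summed CPM 1011 to 1024 in GFP and 823 to 849 in Ezh2-Y726D). Of 6 pericyte markers, 5 were lower, 2 as DEGs (median −0.43, summed CPM 217 to 234 and 170 to 183). Endothelial markers had a median of 0.02, with 2 of 7 lower. All 8 amacrine cell markers were higher, at a summed CPM of 1068 to 1151 in GFP and 1653 to 1713 in Ezh2-Y726D. The part of these cell types in the 9 lower genes was not tested.

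The genes whose profile over the 6 libraries was closest to the mean profile of the 10 genes were named by the root mean square difference of centred log2 CPM, over 12252 genes with a mean of at least 5 CPM. Tmem123 was closest (0.0298), at 51.3, 54.4 and 52.9 CPM in GFP and 29, 34 and 35.3 CPM in Ezh2-Y726D. Laptm5, a lysosomal protein of blood cells (0.0333), Kcne2, a potassium channel subunit (0.0349), Lyn, a Src family kinase (0.0386), and Entpd1, the ectonucleotidase CD39 (0.0388), came next. These outside genes were picked for their match, so their fall repeats that choice. Among the 10 genes themselves, each of which helped set the mean profile, Dock2 (0.0454) and Ptprc (0.0487) lay closest to it. Was (0.153) and Itgam (0.298) lay farthest from it.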

How the data were processed

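RNA from sorted retinal cells was made into libraries with a stranded total RNA kit. The authors deposited raw, whole-number read counts per gene without normalization. The submitters' processing notes name STAR 2.7.0d and GRCm38, and the counting tool, annotation and use of strand are not given in the sources used here. Of 32371 gene IDs, 32325 had a symbol in the gene name table. Coordinates, exon overlap and lengths came from GENCODE vM21 (GRCm38), which may not be the annotation of the counts. Library totals ran from 9333244 to 23782520 counts, and from 4460732 to 22024582 without the rRNA gene CT010467.1, so GFP replicates 2 and 3 gave the least precise values. All 6 columns were used.

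From the deposited counts, CPM with TMM factors (0.647 to 1.31) and edgeR's quasi-likelihood test (edgeR 4.0.16, R 4.3.3) were computed, with filterByExpr (10 counts, total 15), both groups in the fit, no covariate, and Benjamini-Hochberg adjustment over 18138 genes. Ratios of counts within a library were tested with two-sided exact permutation tests. Tested on simulated data for the comparison of GFP with Ezh2-Y726D over 18138 genes, 171 of 200 genes changed by a log2 of 1 were called (193 of them passed the filter), as were 14 unchanged genes.

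The 10 genes, the lists and the tests were chosen with earlier results of these data known, so lists are given as counts and medians. Named were the 10 genes, a paralog of each, the 3 largest rises and 3 largest falls in each pathway list with a mean of at least 50 counts in the higher group, Thy1, Ezh2 and the 5 nearest profiles. Other pathway genes and cell type markers were named after their values were seen, for their known role. Alternatives were DESeq2 (1.42.0), other size factors, other filters, thinning to 4460732 counts, other fold change thresholds, a replicate block and leaving out each library.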

Additional observations from a re-analysis of the deposited data

How the results depend on the processing

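The 9 lower genes kept their direction under every setting tried, and their calls under all but a few. Scaling by library totals that include the rRNA gene left 65 DEGs (19 lower), 0 of the 10 genes lower at either threshold (adjusted P 0.42 to 0.768) and 0 called genes in each pathway list. It turned the log2 fold changes of Itgam to 0.37, Itgav to 0.38, Itgb1 to 0.17, Itga9 to 0.38, Rac1 to 0.50, Dock1 to 0.41, Itgb3 to 0.03, Coro2a to 0.05, Arpc5 to 0.05 and Actr3 to 0.12. The median of all genes under it was 0.49. Without a fold change threshold there were 4988 DEGs, and with a fold change over 2 there were 443, 1 of them among the 10 genes (Was). DESeq2 gave 1126 DEGs (835 lower) and 9 of the 10 genes. Under DESeq2, and after thinning to the shallowest library, 0 other leukocyte integrins and 0 genes acting with CD45 were higher. With no filter, 7 of the listed paralogs were lower. Rac1 had a value of 0.00 with no filter and ran from −0.05 to 0.02 as libraries were left out (0.02 without GFP replicate 2), and Coro1c of −0.02 after thinning. The cause of these smaller shifts was not tested.

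Leaving out each library in turn gave 1207 to 1404 DEGs (829 to 988 lower), 8 to 9 of the 10 genes as lower DEGs and 9 at an adjusted P under 0.05 each time. Listed paralogs lower numbered 6 to 11 (6 without Ezh2-Y726D replicate 2, 7 without replicate 3), and other leukocyte integrins and genes acting with CD45 that were higher numbered 0 to 1 each. Ratios to Ptprc near 0 changed sign, with ranges of −0.12 to 0.02 for Rac2 (0.02 without GFP replicate 1), −0.01 to 0.15 for Coro1a (−0.01 without GFP replicate 2) and −0.15 to 0.06 for Itgal (0.06 without Ezh2-Y726D replicate 3). Itgam to Itgav ran from −0.15 to 0.05, with 0.04 without GFP replicate 3 and 0.05 without Ezh2-Y726D replicate 1. The labels number the replicates 1 to 3 in both groups, but deviations of same-numbered libraries correlated by only 0.0723, 0.0342 and 0.0238. Each library correlated best with its own number, a hint from the data and not the design. A fit with the replicate number as a block gave 1403 DEGs (982 lower) and 9 of the 10 genes.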
